A study of Arabidopsis thaliana with 6 samples.

Results

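The genes described here encode 10 proteins of the oxidative folding machinery of the endoplasmic reticulum (ER) of Arabidopsis thaliana: 8 protein disulfide isomerases (PDIL1-1, PDIL1-2, PDIL1-3, PDIL1-4, PDIL2-1, PDIL2-2, PDIL2-3 and PDIL5-1) and the ER oxidoreductins ERO1 and ERO2. They were chosen by family name, with the level and the change of these genes between the genotypes in view, and taken by locus code as 10 of the 27827 features on the array, and each code matched its symbol or a synonym in the RefSeq gene table. Mature pollen grains, FACS-sorted from open flowers of ecotype Col-0, were profiled on 1-colour Affymetrix whole-transcript arrays, with 3 biological replicates from plants heterozygous for a mutation in NOT1 (NOT1+/-) and 3 from wild-type plants. NOT1 is the scaffold of the CCR4-NOT deadenylase complex. The grains of a heterozygous plant segregate for the mutation, so each NOT1+/- sample mixes mutant and normal grains, and the kind of mutation is not given in the labels. The genotypes received the same growth and sorting protocol and no other treatment is recorded.

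Protein disulfide isomerases make, break and reshuffle disulfide bonds in proteins that enter the secretory pathway, through thioredoxin-like domains with paired cysteines. ERO proteins reoxidise the isomerases and pass the electrons on to oxygen. In many plant tissues part of this family is induced, with the BiP chaperones, by the unfolded protein response, and growing pollen tubes depend on heavy secretion of wall material.

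As a check of the labels, NOT1 (AT1G02080) had 28.6, 31.8 and 32.6 in NOT1+/- pollen, against 47.6, 51.0 and 46.9 in wild type (limma, fitted over all features, log2 fold change -0.65, SE 0.15, adjusted p = 0.029). NOT1 was lower in every alternative. The call held after quantile normalization (log2 fold change -0.90), centring on the 75th percentile (-0.74), the filter on level, 16 added units (-0.46) and trend and robust eBayes. It was lost with median centring (-0.57, adjusted p = 0.055), with replicate number as a block (-0.65, adjusted p = 0.070) and without any single array (-0.68 to -0.59, adjusted p from 0.053 to 0.118).

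Of the 10 genes, 6 were higher in NOT1+/- pollen and 4 did not pass the test, and 0 were lower. The genes that rose were the isomerases PDIL1-1, PDIL1-4, PDIL2-1 and PDIL2-3 and both oxidases, and in each of these 6 all 3 NOT1+/- values lay above all 3 wild-type values. Calls come from limma, fitted to log2 intensity over all features with Benjamini-Hochberg adjustment and called at an adjusted p under 0.05. Over the whole array the same fit called 8.84% of features higher and 3.22% lower, and 14.9% of features had all NOT1+/- values above all wild-type values. No member was lower at an unadjusted p under 0.05 either (0 of 10). The share of all features at that unadjusted threshold was not counted, so unadjusted counts are not read against the array. The median log2 fold change was 1.65 over the 10 genes, against -0.10 over all features. The genes and this contrast were chosen with the values known, so calls, folds and intervals of the 10 describe the data and no p-value is given for them. In bulk pollen, a different share of grains or cells and a different RNA amount per cell cannot be told apart.

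**Figure D1:**
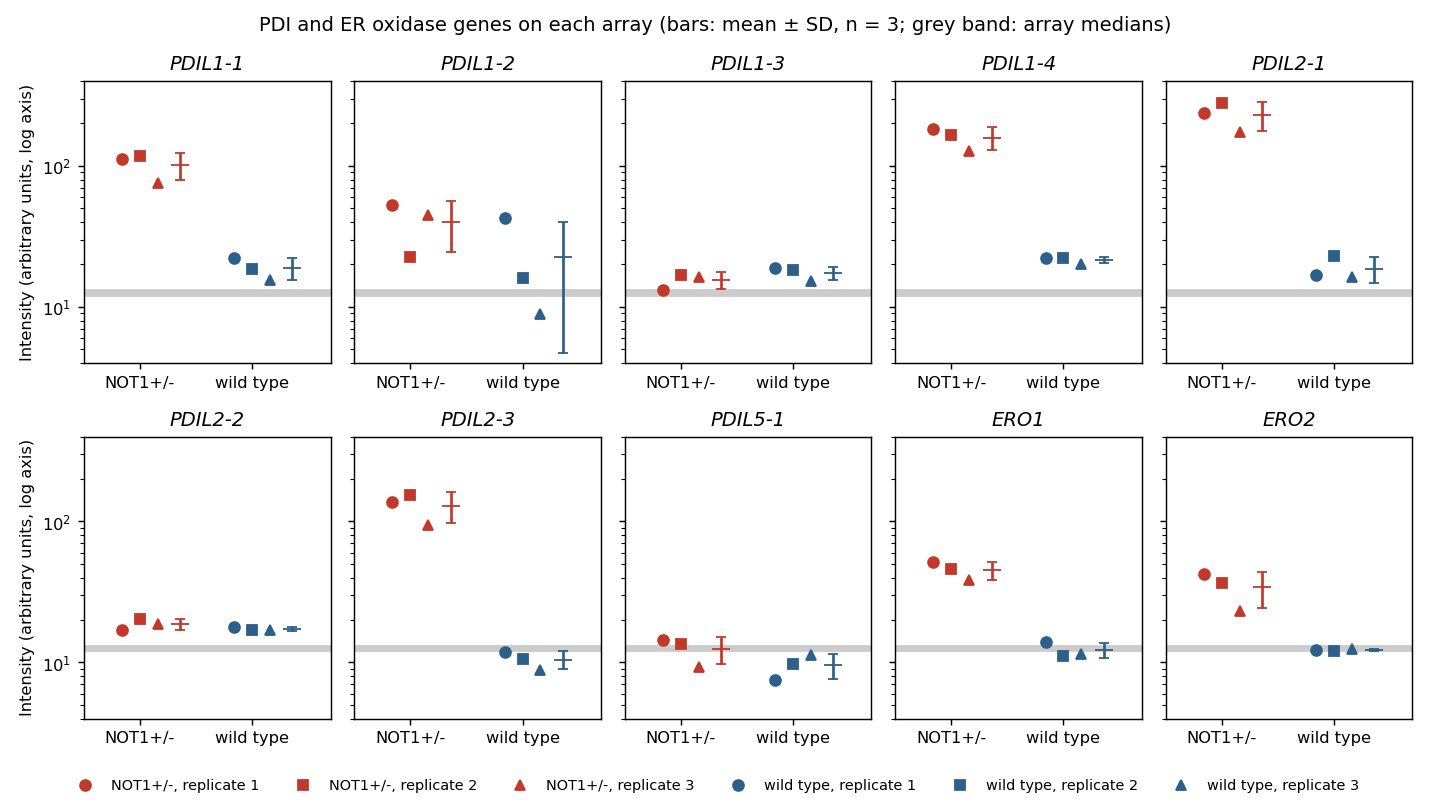
Intensity (arbitrary units, log axis) of each of the 10 genes on the 3 NOT1+/- arrays (red) and the 3 wild-type arrays (blue); marker shapes give the replicate number, bars the mean ± SD (n = 3), and the grey band the range of the array medians. PDIL1-1, PDIL1-4, PDIL2-1, PDIL2-3, ERO1 and ERO2 have no overlap between the genotypes, while PDIL1-2, PDIL1-3, PDIL2-2 and PDIL5-1 overlap.

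PDIL2-1 (AT2G47470_at), also called UNE5, is an isomerase known from embryo sac development and pollen tube guidance in the pistil. Its intensity was 239, 281 and 175 on the NOT1+/- arrays, against 16.9, 23.1 and 16.2 on the wild-type arrays. The lowest mutant array was several times the highest wild-type array. The means were 231 ± 53.4 in NOT1+/- and 18.7 ± 3.79 in wild type (SD, n = 3 each), a 12.3-fold difference (log2 fold change 3.62 with SE 0.23 and a 95% interval from 3.08 to 4.16). On the deposited values its fitted change and that of PDIL2-3 were the largest of the 10 and their intervals overlapped. Which of them was larger changed with the setting. PDIL2-3 was ahead after quantile normalization (3.44, against 3.32 for PDIL2-1), and when either wild-type replicate 1 or NOT1+/- replicate 3 was left out. The wild-type mean of PDIL2-1, like those of PDIL1-1 (18.8) and PDIL1-4 (21.6), lay within the range of the leaf, floral organ and tapetum markers. The sizes of these folds are uncertain.

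PDIL2-3 (AT2G32920_at) and PDIL2-2 (AT1G04980_at) form a related pair, resembling the mammalian isomerase P5. PDIL2-3 had 139, 155 and 94.3 in NOT1+/- pollen, against 11.9, 10.7 and 8.84 in wild type. Every wild-type value lay below its array's median, so whether the wild-type signal stood above background is not known and the size of the rise is uncertain (12.2-fold, log2 fold change 3.61 with SE 0.23 and a 95% interval from 3.07 to 4.14). PDIL2-2 had 17.1, 20.4 and 18.9 in NOT1+/- pollen, against 17.9, 17.1 and 16.9 in wild type. These ranges overlapped, and the log2 fold change of 0.12 (SE 0.15) had a 95% interval of -0.24 to 0.47.

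The log2 ratio of PDIL2-3 to PDIL2-2 was 2.76 ± 0.38 in NOT1+/- and -0.73 ± 0.18 in wild type (SD, n = 3 each), so the signals of the pair changed unequally. PDIL2-2 read 16.9 to 20.4 over all arrays, above each array's median. That lay within the wild-type means of the leaf, floral organ and tapetum markers, from 4.89 (CAB3) to 36.7 (A9). Whether the PDIL2-2 probes detected the transcript is not known, so an unequal change of the transcripts is not shown. The log2 ratio of PDIL2-1 to PDIL2-3, in contrast, was 0.84 ± 0.05 in NOT1+/- and 0.83 ± 0.31 in wild type on the deposited values. Since the wild-type signal of PDIL2-3 may lie at background, this ratio does not show that both rose equally, and with 16 units added before log2 their log2 fold changes were 2.82 for PDIL2-1 and 2.43 for PDIL2-3. Such ratios compare different probes, and only their change between genotypes can be read.

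PDIL1-4 (AT5G60640_at) had the largest fitted change of the 4 PDIL1 genes among the 10. Its intensity was 184, 166 and 127 in NOT1+/- pollen, against 22.2, 22.3 and 20.2 in wild type. The wild-type arrays were tightly grouped and well below every mutant array. The fold was 7.29 (log2 fold change 2.87 with SE 0.19 and a 95% interval from 2.43 to 3.30). Its sister gene PDIL1-3 (AT3G54960_at) had 13.1, 17.0 and 16.4 in NOT1+/- pollen, against 18.8, 18.3 and 15.4 in wild type. Those ranges overlapped, with a log2 fold change of -0.18 (SE 0.18, 95% interval -0.59 to 0.23). The log2 ratio of PDIL1-4 to PDIL1-3 was 3.35 ± 0.43 in NOT1+/- and 0.31 ± 0.08 in wild type, a difference of 3.05. PDIL1-3, at 13.1 to 18.8 over all arrays, was above each array's median. It was also within the range of the leaf, floral organ and tapetum markers in wild type. Whether its transcript was detected is not known.

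PDIL1-1 (AT1G21750_at), an isomerase known for holding cysteine proteases in check in developing seeds, had 111, 117 and 76.0 in NOT1+/- pollen, against 22.2, 18.6 and 15.6 in wild type. All mutant values exceeded all wild-type values, with a fold of 5.35 (log2 fold change 2.42 with SE 0.23 and a 95% interval from 1.89 to 2.95). Its close paralogue PDIL1-2 (AT1G77510_at) had 53.1, 22.6 and 45.0 in NOT1+/- pollen, against 42.6, 16.0 and 8.89 in wild type. PDIL1-2 was the most variable of the 10 within a genotype, and its wild-type replicate 1 lay above NOT1+/- replicate 2. The log2 fold change was 1.05 (SE 0.57), with a 95% interval of -0.26 to 2.36 that spans 0. Without wild-type replicate 1 it was 1.66 and without wild-type replicate 3 it was 0.53, neither of them called.

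PDIL5-1 (AT1G07960_at), a small isomerase with a single thioredoxin-like domain, had 14.5, 13.4 and 9.33 in NOT1+/- pollen, against 7.55, 9.76 and 11.3 in wild type. The signal lay below the array median on 4 of the 6 arrays and the genotypes overlapped (log2 fold change 0.37 with SE 0.23 and a 95% interval from -0.17 to 0.92).

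Both oxidases rose. ERO1 (AT1G72280_at) had 51.3, 45.8 and 38.5 in NOT1+/- pollen, against 14.1, 11.2 and 11.6 in wild type. ERO2 (AT2G38960_at) had 42.6, 36.5 and 23.2 in NOT1+/- pollen, against 12.4, 12.1 and 12.4 in wild type. Neither gene overlapped between genotypes, although in each of them 2 of the 3 wild-type values lay below the array median. ERO1 was 3.67-fold higher (log2 1.88 ± 0.18 SE, 95% interval 1.45 to 2.30) and ERO2 2.69-fold higher (log2 1.43 ± 0.24 SE, 95% interval 0.88 to 1.98), so their intervals overlapped. The log2 ratio of ERO1 to ERO2 was 0.44 ± 0.25 in NOT1+/- and -0.01 ± 0.17 in wild type, a difference of 0.45.

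**Figure D2:**
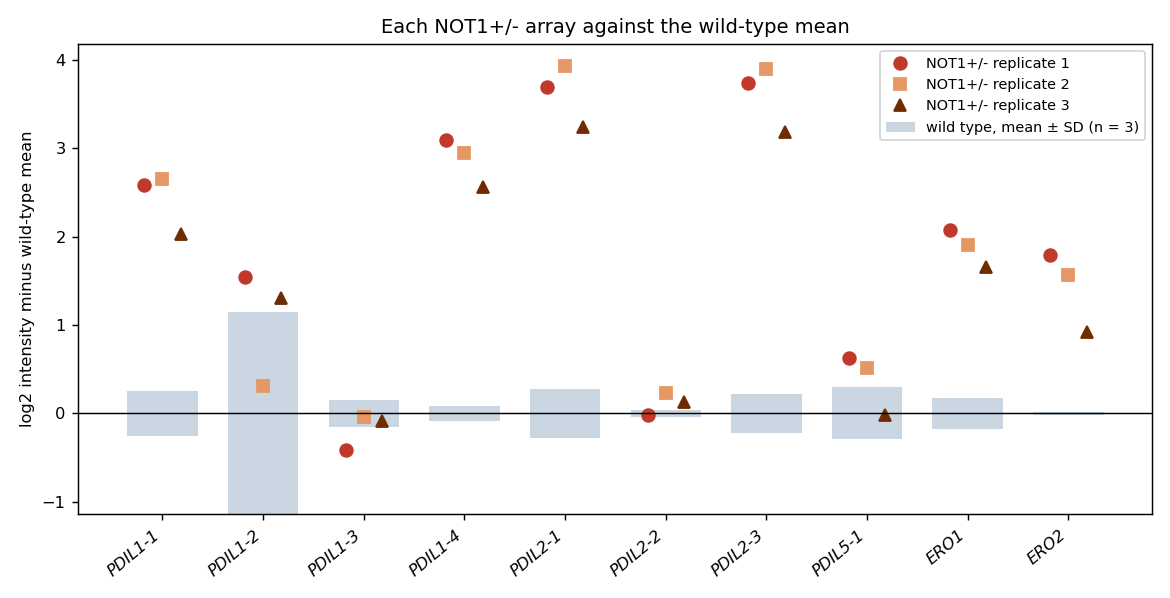
log2 intensity of each NOT1+/- array minus the wild-type mean, for the 10 genes, with the wild-type mean ± SD (n = 3) as a blue box around 0. In the 6 genes that rose, replicate 3 (dark triangle) is the lowest mutant array, while replicates 1 and 2 change order from gene to gene.

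The 6 genes that rose also shared an order among the mutant arrays. In all 6 of them NOT1+/- replicate 3 was the lowest of the mutant arrays, at 0.587 (ERO2) to 0.792 (ERO1) of the mean of replicates 1 and 2, with a median of 0.669. The order was not particular to these genes. Replicate 3 was the lowest in 16 of the 17 genes called higher in the related lists described below (94.1%), where the median of the same ratio was 0.752. It was the lowest in 77.5% of all 2461 features called higher, where the median ratio was 0.831. The median of the 10 genes over the wild-type mean was 1.93, 1.74 and 1.48 on the log2 scale in NOT1+/- replicates 1, 2 and 3. Without replicate 3 the 6 genes had log2 fold changes of 1.68 (ERO2) to 3.82 (PDIL2-3), and all 6 were still called.

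The calls did not depend on how the arrays were scaled. Each of the 6 rises was called in all 13 alternatives run. Each of the 4 other genes was called in none of those in which it was tested (PDIL5-1 did not pass the filter on level). That filter used the mean over all 6 arrays. PDIL2-3, dim in wild type, passed it through its NOT1+/- values, so its call under the filter is no separate support. The NOT1+/- values also raised the means of ERO1 and ERO2. The size of the rises did depend on how dim wild-type signal was treated: with 16 intensity units added before log2, a setting that shrinks ratios of dim features, the log2 fold changes were 2.82 for PDIL2-1, 2.43 for PDIL2-3, 2.21 for PDIL1-4, 1.74 for PDIL1-1, 1.11 for ERO1 and 0.80 for ERO2.

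**Figure D3:**
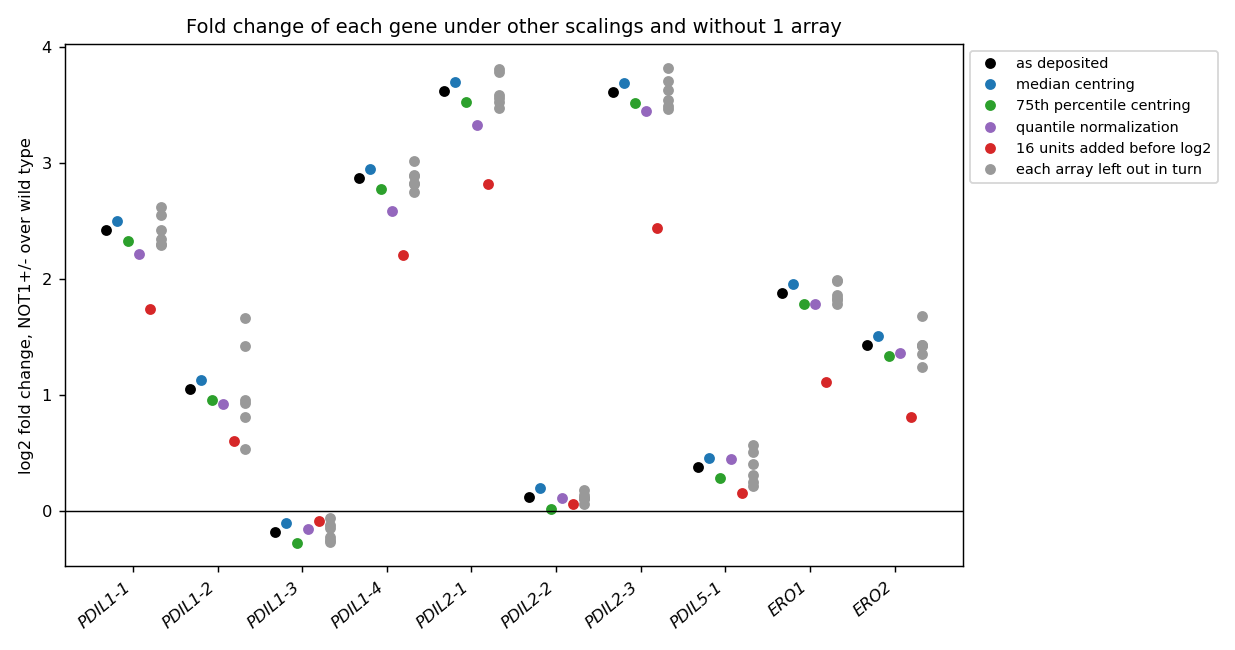
log2 fold change (NOT1+/- over wild type) of each of the 10 genes on the deposited values, under 3 rescalings, with 16 units added before log2, and with each array left out in turn. The 6 genes that rose stay above 0 under every setting, between 0.80 and 3.82, with the lowest value of each at 16 added units.

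The remaining isomerases of the family were divided too. Of 5 further PDI genes, 2 rose, 0 fell (0 at an unadjusted p under 0.05) and 3 did not pass, with a median log2 fold change of 0.35. PDIL1-6 (AT3G16110) had 151, 137 and 98.1 in NOT1+/- pollen, against 8.35, 9.30 and 7.94 in wild type (limma log2 fold change 3.89, SE 0.20, adjusted p = 1.68e-05). Its wild-type values were all below the array medians, so the size is uncertain. Its paralogue PDIL1-5 (AT1G52260) overlapped between genotypes, with 18.8 ± 1.37 in NOT1+/- and 17.6 ± 5.17 in wild type (SD, n = 3 each; limma log2 fold change 0.13, adjusted p = 0.77).

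PDIL5-3 (AT3G20560), which carries a membrane-spanning cargo-receptor-like part, had 45.1, 45.4 and 34.9 in NOT1+/- pollen, against 21.1, 22.8 and 30.25 in wild type (limma log2 fold change 0.77, SE 0.20, adjusted p = 0.049). That call stood at the threshold; it held without wild-type replicate 3 and ended without each of the other 5 arrays, after quantile normalization (adjusted p = 0.138) and after centring on the 75th percentile (0.081). The related PDIL5-4 and the membrane-anchored PDIL5-2 were not called, with log2 fold changes of 0.35 and -0.47.

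**Figure D4:**
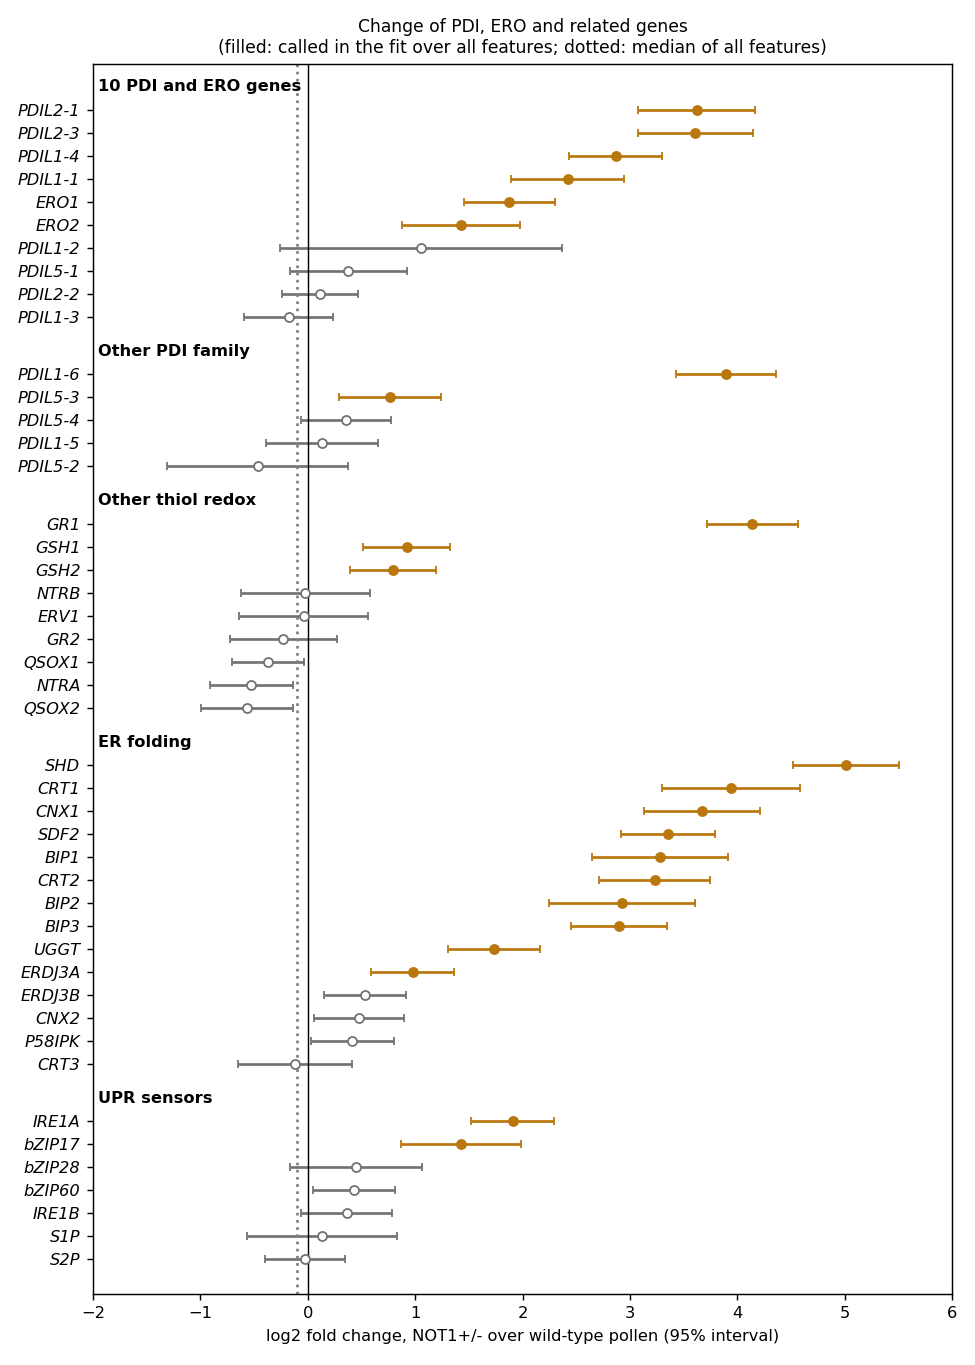
log2 fold change (NOT1+/- over wild-type pollen) with 95% interval for the 10 genes and for 4 lists of related genes; filled points were called in the limma fit over all features, and the dotted line is the median of all features, -0.10. In the ER folding list only CRT3 has an interval that spans 0, and among the other PDI genes only PDIL1-6 lies far above 0.

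Other enzymes of thiol chemistry moved in part. Of 9 genes, 3 rose, 0 fell and 6 did not pass (median log2 fold change -0.04), and 3 were lower at an unadjusted p under 0.05. That unadjusted count also has no array-wide share beside it. GR1, a glutathione reductase, had 322, 317 and 266 in NOT1+/- pollen, against 15.3, 20.4 and 15.9 in wild type (limma log2 fold change 4.14, SE 0.18, adjusted p = 8.36e-06). The fitted value exceeded those of the 10 genes, and the difference was not tested. The wild-type mean of GR1 (17.2) lay within the range of the leaf, floral organ and tapetum markers in wild type. The size of its rise is therefore uncertain. GSH1 and GSH2, the enzymes of glutathione synthesis, had log2 fold changes of 0.92 and 0.79 (limma adjusted p = 0.012 and 0.021), with wild-type values below the array medians. The call of GSH1 was lost without NOT1+/- replicate 1, and that of GSH2 without any array other than NOT1+/- replicate 3.

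QSOX1, a sulfhydryl oxidase that makes disulfides without ERO, had 64.8 ± 1.29 in NOT1+/- and 83.6 ± 2.13 in wild type. The thioredoxin reductase NTRA had 41.0 ± 5.31 in NOT1+/- and 58.9 ± 3.19 in wild type. Neither was called (limma log2 fold change -0.37 and -0.53, adjusted p = 0.156 and 0.088), although all 3 mutant values lay below all wild-type values in both, as they did in 16.9% of all features. Both were called lower after quantile normalization (limma adjusted p = 0.011 and 0.012), among other settings. GR2, the organellar glutathione reductase, was not called (-0.23, limma adjusted p = 0.56).

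Chaperones that work beside the isomerases rose as well. Of 14 ER folding genes, 10 rose, 0 fell (0 at an unadjusted p under 0.05) and 4 did not pass, with a median log2 fold change of 2.91; that the BiP genes rise was known when this list was made. SHD, the ER form of HSP90, had 340, 320 and 217 in NOT1+/- pollen, against 8.04, 9.87 and 8.85 in wild type (limma log2 fold change 5.01, SE 0.21, adjusted p = 7.46e-06). Its wild-type values lay below the array medians. The lectin chaperones CNX1, CRT1 and CRT2 had log2 fold changes of 3.67, 3.94 and 3.23, SDF2 had 3.35, and UGGT, which reglucosylates misfolded glycoproteins, had 1.73. The 3 BiP genes had 2.90 to 3.28 and ERDJ3A, a BiP co-chaperone, had 0.98, with the largest adjusted p of the 10 (limma adjusted p = 0.0071). All wild-type values of CRT1 and UGGT and 2 of 3 of CRT2 and BIP2 were under the median of their array. The wild-type means of CNX1 (14.4), SDF2 (16.6), BIP3 (17.1) and BIP1 (25.4) lay within the range of the leaf, floral organ and tapetum markers. How large these rises were is therefore uncertain. ERDJ3B (0.53) and P58IPK (0.41), also co-chaperones of BiP, and CRT3 (-0.12) were not called. Of the 14 genes, 13 were higher at an unadjusted p under 0.05. That count has no array-wide share beside it, and nothing is read from it. The adjusted fit called 8.84% of all features higher. In ERDJ3B and P58IPK, unlike CRT3, all NOT1+/- values lay above all wild-type values, as in 14.9% of all features. ERDJ3B was called higher with 16 added units (limma adjusted p = 0.011), among other settings. ERDJ3A lost its call after quantile normalization (adjusted p = 0.184).

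Regulators of the unfolded protein response were examined next. Of 7 genes, 2 rose, 0 fell (0 at an unadjusted p under 0.05) and 5 did not pass (median log2 fold change 0.43). IRE1A, a sensor kinase and ribonuclease of the ER membrane, had 76.5, 65.3 and 60.3 in NOT1+/- pollen, against 16.9, 17.3 and 19.5 in wild type (limma log2 fold change 1.91, SE 0.17, adjusted p = 2.09e-04). Its wild-type mean (17.9) lay within the range of the leaf, floral organ and tapetum markers, so the size is uncertain. The membrane-tethered factor bZIP17 had a log2 fold change of 1.43 (SE 0.24, adjusted p = 0.0063), with wild-type values below the array medians. bZIP60, whose messenger RNA is spliced by IRE1, had 107.8, 93.7 and 83.5 in NOT1+/- pollen, against 67.7, 71.9 and 71.2 in wild type, and was not called (log2 fold change 0.43, limma adjusted p = 0.147). IRE1B (0.36) and bZIP28 (0.45) were not called either. The array values give 1 level per gene and do not separate spliced from unspliced bZIP60.

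Across the 6 arrays, log2 values of PDIL2-1 correlated at r = 0.995 with PDIL2-3 and PDIL1-4, 0.988 with PDIL1-1, 0.982 with ERO1 and 0.959 with ERO2, against 0.607 with PDIL2-2 and -0.494 with PDIL1-3. The 5 features most like PDIL2-1, among 13912 others above the median level, were AT5G26990, AT1G12600, AT5G47390, AT3G63360 and PUB17, all at r of 0.999 or more, with log2 fold changes of 0.58 (PUB17) to 3.49 (AT1G12600). The call of PUB17 was lost after quantile normalization (0.06, limma adjusted p = 0.838), after centring on the 75th percentile (0.48, limma adjusted p = 0.076), with replicate number as a block and without any single array, and that of AT5G47390 after quantile normalization (0.47, limma adjusted p = 0.071). A further measure of how common this pattern was is that 638 features exceeded r = 0.99. With 6 arrays in 2 genotypes such a correlation mostly restates the genotype difference.

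In the reference gene order, the 6 genes that rose had 12 adjacent genes on the array. Of these, 2 rose, 0 fell and 10 did not pass, where 8.84% of all features were called higher. The 2 were FBP7, next to PDIL1-1 (limma log2 fold change 1.16, SE 0.21, adjusted p = 0.0093), and ZFN2, next to PDIL2-3 (0.78, SE 0.17, adjusted p = 0.022). Both are named here after their values were seen, and ZFN2 lost its call after quantile normalization (0.17, adjusted p = 0.571), without replicate 1 or 2 of either genotype, and with replicate number as a block. Of the 8 neighbours of the other 4 genes, 0 were called. All 3 members on chromosome 2 rose, with 2 of 5 on chromosome 1, 1 of 1 on chromosome 5 and 0 of 1 on chromosome 3. A link of the rises to position was not tested.

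Markers of pollen and of other tissues were compared as a check of the labelled cell type. For the counts below, 8.84% of all features were called higher and 3.22% lower. The 12 markers of the pollen vegetative cell summed to 16622 to 17211 in NOT1+/- and 15336 to 15883 in wild type, with 3 higher and 0 lower. The 4 sperm cell markers summed to 327 to 509 in NOT1+/- and 267 to 287 in wild type, with 2 higher, and their highest sum was in NOT1+/- replicate 3, the array in which the 6 PDI and ERO genes that rose were lowest among the mutants. Their part in the rises was not tested. Of 6 leaf, 5 floral organ and 7 tapetum markers, 0 were higher and 3 were lower; no single value of these 18 exceeded 46.2, and their sums were 39.9 to 52.2, 48.6 to 62.4 and 105 to 120 in NOT1+/-, against 63.4 to 71.5, 54.3 to 57.2 and 117 to 133 in wild type. No marker was listed at 0.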

How the data were processed

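The authors deposited 1 intensity value per locus and array on a linear scale. Per the submitters' processing notes the tool was Affymetrix Expression Console; how it summarised, background-corrected and scaled the probes is not given here. Array medians were 12.0 to 12.3 in NOT1+/- and 12.3 to 13.1 in wild type, and 95th percentiles 193 to 202 in NOT1+/- and 133 to 141 in wild type. There were no detection calls or scan dates, and precision is limited by the number of arrays. The 6 values of no member equalled those of another feature (0 of 10).

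Log2 intensity was fitted with limma 3.58.1 in R 4.3.3 (lmFit, eBayes) over all 27827 features, without filter or offset; 27241 matched the RefSeq table (TAIR10.1), used for names and gene order. Fold changes are ratios of geometric means; group values are arithmetic means ± SD. The script was tested on simulated data.

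Members, lists and alternatives were chosen with earlier results of these data known. Named were all members, NOT1, the called genes of 4 related lists with up to 3 uncalled ones of highest wild-type mean, and the 5 features most correlated with the most changed member. The neighbour comparison was chosen after its data were seen. Alternatives were a replicate block, 3 rescalings, a level filter, 16 added units, eBayes with trend and robust, and leaving out each array. Deviations from the group mean correlated at 0.11, 0.13 and -0.01 between samples numbered 1, 2 and 3, and at -0.21 to 0.09 between samples of unlike number. With 3 arrays per group these values cannot decide whether the samples were paired. The main fit left them unpaired, and the replicate block was run as an alternative.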

Additional observations from a re-analysis of the deposited data

How the results depend on the processing

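The count of members called higher stayed at 6 and the count called lower at 0 in all 13 alternatives. The level filter gave no separate support for PDIL2-3, which passed it through its NOT1+/- values. The median log2 fold change of the 10 members stayed between 1.51 and 1.83, except 0.96 with 16 units added before log2. The level filter dropped PDIL5-1, and the median of the 9 members left, 1.88, is that of another gene set. Without 1 array the median of the 10 ran from 1.51 to 1.83. With the replicate block the members' median was 1.65 and their 6 calls held; it ended the calls of PDIL5-3 (adjusted p = 0.108), NOT1 (0.070), ZFN2 (0.060) and PUB17 (0.088) and no other call among the named genes. Other PDI genes called higher numbered 1, not 2, with the block, quantile normalization or centring on the 75th percentile, and 1 to 2 without 1 array. Thiol redox genes called lower, 0 on the deposited values, numbered 2 after quantile normalization, 1 after centring on the 75th percentile, 3 among features above the median level, 2 with 16 added units and 2 with trend and robust eBayes; those called higher numbered 1 to 3 without 1 array. Regulators called higher numbered 1 among features above the median level, where bZIP17 was filtered out, and 3 with 16 added units or with trend and robust eBayes, where bZIP60 passed. Leaving out 1 array, uncalled PDIL1-5 ran from -0.031 (without wild-type replicate 2) to 0.357 and CRT3 from -0.29 to 0.085 (without wild-type replicate 3). Over the array, lower calls numbered 896 on the deposited values, 1991 after quantile normalization and 258 without NOT1+/- replicate 1. The causes were not tested. Detection limits are unknown, so folds from wild-type values below the array median (PDIL2-3, ERO1, ERO2) are uncertain in size. The wild-type means of PDIL2-1 (18.7), PDIL1-1 (18.8) and PDIL1-4 (21.6) were above the array medians. They still lay within the range of the leaf, floral organ and tapetum markers in wild type (means of 4.89 for CAB3 to 36.7 for A9). The sizes of these folds are therefore uncertain too.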
